A study of Mus musculus with 18 samples.

Results

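Small-intestinal crypts that had lost Myc together with E2f1, E2f2 and E2f3, labelled E2f/Myc QKO and called QKO here, were compared with control crypts. The comparison rests on 9 of the 18 arrays of the study, 5 labelled E2f/Myc QKO and 4 labelled control, and on all 18193 genes that the arrays name by a single symbol, each read from its probe set with the highest mean signal. The remaining arrays hold crypts that had lost E2f1, E2f2 and E2f3 (E2f TKO, 5 arrays) or Myc (Myc KO, 4 arrays). All mice were adults of 2 months, and crypts were harvested 2 days after deletion. Deletion was driven by Ah-cre, an inducible Cre recombinase of the intestinal epithelium, and the labels give this treatment for every group without stating which alleles the controls carried or whether each array is a separate mouse. P-values below therefore measure the spread between these samples, which may be technical. Any cells that escaped recombination are also in the RNA, and the labels do not give their share.

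E2f1, E2f2 and E2f3 are transcription factors that bind genes of DNA replication and cell division. They act as activators when free and as repressors when bound by the retinoblastoma family of pocket proteins. Myc pairs with Max at E-box sequences and is known for raising the genes of ribosome assembly, nucleotide synthesis and RNA processing. Intestinal crypts are glands of rapidly dividing cells. Stem cells at the base depend on Wnt signals, dividing progenitors lie above them, and enterocytes, goblet, Paneth, enteroendocrine and tuft cells arise from both.

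Values are log2 signals, and a difference of 1 on this scale is a 2-fold change. Array medians were 6.146 to 6.165 in controls and 6.231 to 6.263 in QKO, a mean gap of 0.095. Pairs of QKO arrays correlated at 0.989 or above over all genes and pairs of control arrays at 0.991 or above, and 0 pairs held identical values. The array labelled QKO 4 stood apart by its enterocyte markers, whose mean over 26 genes was 1.21 below the control mean, against -0.22 to 0.10 in the other QKO arrays. Control 1 stood apart by T cell markers, whose mean over 15 genes was 0.81 above the control mean, against -0.35 to -0.16 in the other controls. Xist was high in control 3 (12.60), QKO 4 (13.40) and QKO 5 (13.01) and between 6.44 and 6.96 in the other arrays of both groups. The crypt markers were present in every array, with Olfm4, a stem cell marker, at 12.94 to 13.28 in QKO and 12.99 to 13.21 in controls. In tissue of mixed cells, a change in the number of cells of a type and a change in RNA per cell cannot be told apart.

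The targeted genes were examined first. Myc read 9.90, 9.77, 9.69 and 10.30 on the control arrays and 8.52, 7.94, 8.24, 8.05 and 8.02 on the QKO arrays. All QKO values lay below all control values, and Myc fell by 1.76 (SE 0.15, adjusted p = 9.19e-07). The difference between QKO and Myc KO was -0.09 (adjusted p = 0.809). E2f3 read 8.62, 8.73, 8.80 and 8.96 in controls and 8.17, 8.09, 8.14, 8.19 and 8.11 in QKO, so the groups did not overlap. Its difference was -0.64 (SE 0.19, adjusted p = 0.0192), which no longer passed without control 4 (adjusted p = 0.0631), and its second probe set differed by -0.26 (adjusted p = 0.126 over all probe sets). E2f1 read 7.70, 7.93, 7.85 and 8.05 in controls and 8.03, 8.18, 7.73, 8.27 and 8.08 in QKO, and E2f2 read 9.28, 9.21, 9.11 and 8.90 against 9.23, 9.41, 9.23, 9.30 and 9.18. Neither passed the test (0.18, adjusted p = 0.245, and 0.15, adjusted p = 0.443), and another probe set of E2f1 was higher in QKO by 0.74 (adjusted p = 4.46e-05 over all probe sets). Whether these probe sets lie in the deleted exons is not given in the sources used here, so E2f1 and E2f2 do not check the labels.

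Of the 18193 genes, 4888 (26.9%) passed an adjusted p of 0.05 in limma, 2602 higher in QKO (14.3%) and 2286 lower (12.6%). The median of the genes called higher was 0.39 and of those called lower -0.45. A change of at least 2-fold was met by 220 of the higher and 163 of the lower genes. All 5 QKO arrays lay above all 4 controls in 2400 genes (13.2%) and below them in 2358 genes (13%). The split depends on the scale. The median difference of all genes was 0.035, and centring each array on its own median lowered every difference by 0.095 and gave 1416 higher against 3552 lower calls. Without QKO 4 and control 1 the counts were 2192 higher and 2091 lower.

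**Figure D1:**
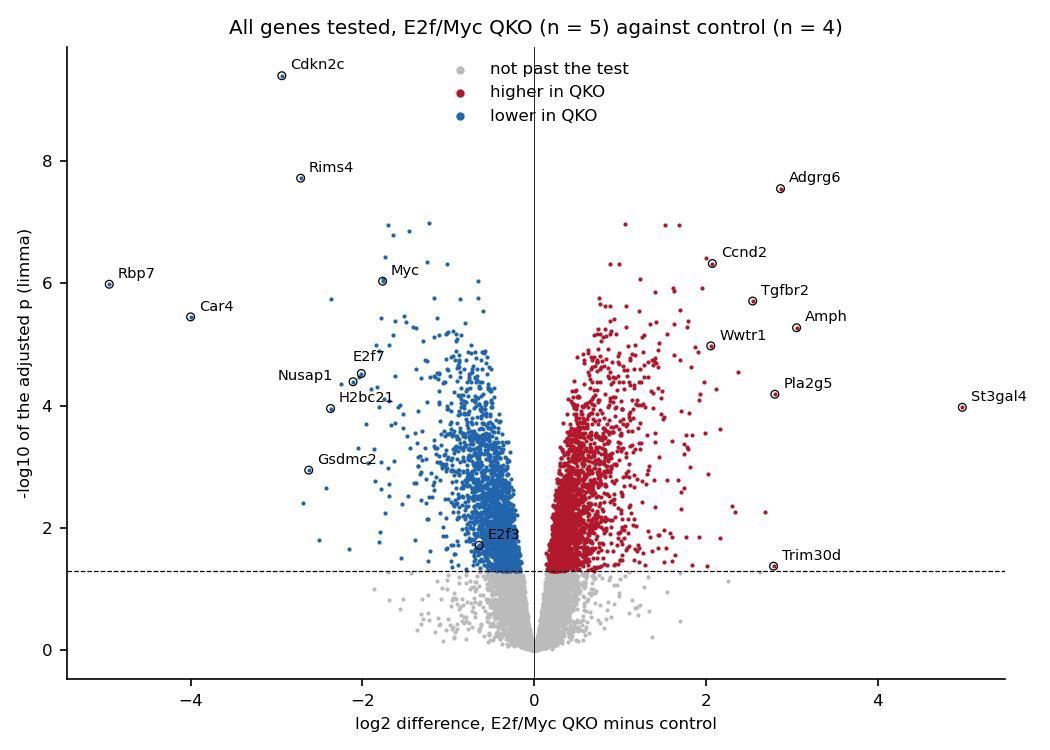
Each point is 1 of the 18193 genes, with the log2 difference of E2f/Myc QKO (n = 5) minus control (n = 4) on the horizontal axis and -log10 of the adjusted p from limma on the vertical axis. Red and blue points are the 2602 higher and 2286 lower genes, the dashed line marks an adjusted p of 0.05, and Cdkn2c stands highest while St3gal4 and Rbp7 lie farthest to the right and left.

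The 15 largest rises were in genes of varied function. St3gal4, a sialyltransferase that caps glycans, read 5.89, 6.30, 7.13 and 5.91 in controls and 12.03, 11.96, 10.93, 10.15 and 11.40 in QKO, a difference of 4.98 (SE 0.72, adjusted p = 0.000106). It differed from control by 4.85 in E2f TKO and by -0.22 in Myc KO. Adgrg6, an adhesion G protein-coupled receptor, read 4.26, 4.40, 4.57 and 4.57 in controls and 7.12, 7.52, 7.13, 7.52 and 7.29 in QKO (2.87, SE 0.17, adjusted p = 2.82e-08), while a dimmer probe set of the gene, with means of 3.26 and 3.72, was higher by 0.46 (adjusted p = 0.000978 over all probe sets). Tgfbr2, the ligand-binding receptor for TGF-beta, read 8.86, 8.24, 8.81 and 9.02 against 10.80, 11.17, 11.27, 11.65 and 11.50 (2.54, SE 0.23, adjusted p = 1.94e-06), and 1.5 as the mean of its probe sets. Ccnd2, the cyclin D2 that opens the G1 phase with Cdk4 or Cdk6, read 11.79, 10.99, 11.69 and 11.43 against 13.18, 13.54, 13.47, 13.85 and 13.72 (2.07, SE 0.17, adjusted p = 4.72e-07). In these 4 genes every QKO array stood above every control array. The remaining genes of these 15 were Amph, a membrane-bending protein of endocytosis (3.06), Pla2g5, a secreted phospholipase (2.80), Sptssb, a subunit that activates sphingolipid synthesis (2.69), Glipr1 (2.37), Gkn3, a gastrokine (2.34), Lect2 (2.16), 1500035N22Rik (2.11), Wwtr1, the Hippo pathway coactivator TAZ (2.06), and Acsm3 (2.02). Trim30d (2.79) also ranked here but read 4.34 to 9.10 in controls and lost its call in 12 of 21 alternative settings. Hsd17b13 (2.16) lost it without control 2 or control 3, and its other probe set differed by -2.74 (adjusted p = 1.1e-06 over all probe sets).

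The largest falls included brush-border, retinoid-binding and division genes. Rbp7, a retinol-binding protein, read 10.23, 11.13, 11.60 and 11.58 in controls and 6.63, 5.80, 6.33, 5.94 and 6.23 in QKO (-4.95, SE 0.43, adjusted p = 1.03e-06). Its gene lies near E2f2, and in E2f TKO it differed from control by -4.63. Car4, a carbonic anhydrase of the apical membrane, read 10.98, 11.43, 11.62 and 11.10 against 6.83, 7.48, 8.27, 6.50 and 7.34 (-4.0, SE 0.39, adjusted p = 3.52e-06). Cdkn2c, which encodes the inhibitor p18 of Cdk4 and Cdk6, read 9.66, 10.16, 10.23 and 9.90 against 7.21, 7.01, 7.02, 6.98 and 7.05 (-2.94, SE 0.13) and had the smallest adjusted p of all genes, 4.01e-10. None of these QKO values reached a control value. The others were Rims4 (-2.72), Gsdmc2, a gasdermin (-2.62), the class I gene H2-Bl (-2.42), the histone H2B gene H2bc21 (-2.37), Pyroxd2 (-2.37), the spindle protein Nusap1 (-2.11), Cenpa, the centromeric histone H3 (-2.05), Ccnf, cyclin F (-2.04), the repressor E2f7 (-2.01), 2610318N02Rik (-1.95), Ctse and Bcl2l15. Ctse, cathepsin E, fell by 2.25 on its brighter probe set and differed by 0.14 (adjusted p = 0.565 over all probe sets) on the dimmer one. Bcl2l15, a distant Bcl2 relative, differed by -2.15 (adjusted p = 0.0224) and lost its call without QKO 4, control 1 or control 3.

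Genes beside a deleted locus are inherited with it, so linkage and the deletion cannot be told apart there. Of the 30 genes with the largest changes, 5 lie within 20 Mb of a deleted gene: Rbp7 and Pla2g5 near E2f2, Rims4 near E2f1, Amph near E2f3 and Gsdmc2 near Myc. Among all genes, 1469 (8.07%) lie within that window, and 400 of them (27.2%) passed the test, against 26.9% of all genes. Without them 4488 genes passed.

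**Figure D2:**
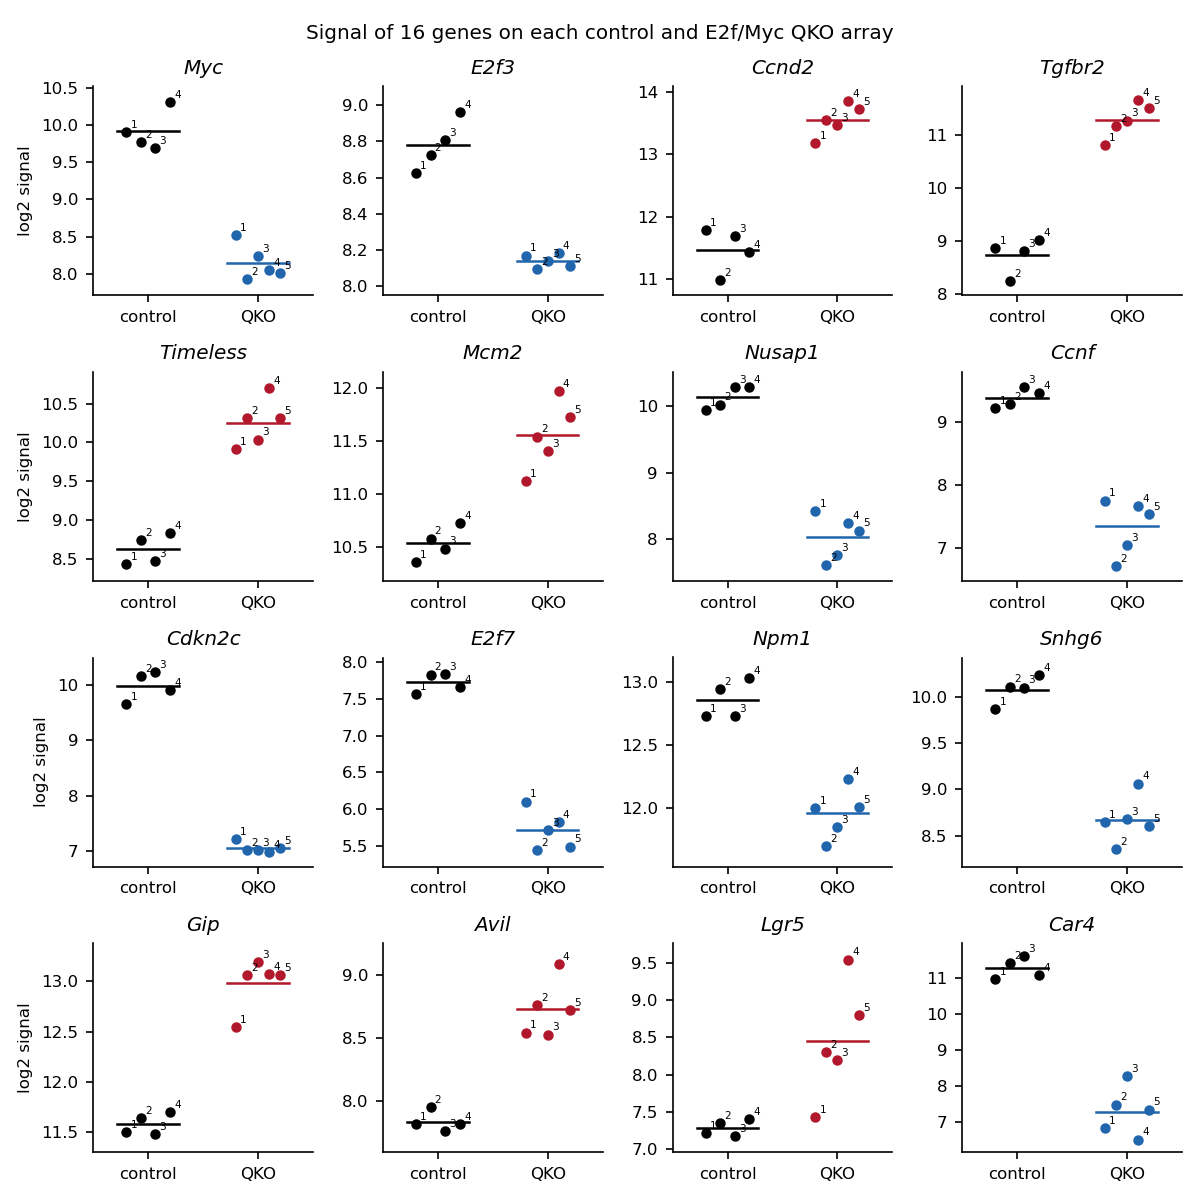
Each panel plots the log2 signal of 1 gene on the 4 control arrays (black) and the 5 E2f/Myc QKO arrays (red where the mean was higher, blue where lower), with the array number beside each point and a line at the group mean. The vertical axes differ between panels and do not start at 0; the groups are apart in all 16 genes, with the narrowest gap in Lgr5, where QKO 1 at 7.43 stood just above control 4 at 7.40.

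Genes of the G1/S transition and DNA replication, which free E2f proteins are known to activate, were mostly higher in QKO. Of 66 measured members 36 rose, 4 fell and 26 did not pass, and the list's median was 0.45, against 0.035 for all genes. The mean of the list lay above the control mean on every QKO array, by 0.15, 0.32, 0.28, 0.72 and 0.52 on arrays 1 to 5, so QKO 4 was the highest. Without QKO 4, 32 members rose, and 26 without QKO 4 and control 1. Timeless, a fork protection factor, read 8.43, 8.75, 8.48 and 8.84 in controls and 9.92, 10.31, 10.04, 10.70 and 10.31 in QKO, which was 3.10-fold (1.63 on the log2 scale, SE 0.16, adjusted p = 4.63e-06). Cdt1, which loads the replicative helicase, read 10.86, 11.14, 10.87 and 11.22 against 11.87, 12.15, 12.01, 12.43 and 12.24 (1.12, SE 0.13, adjusted p = 1.67e-05). Its partner Cdc6 rose by 1.26, the origin recognition subunit Orc1 by 0.95, and the helicase subunits Mcm4, Mcm5 and Mcm2 by 1.11, 1.03 and 1.01. The helicase activators Gins2 and Cdc45 rose by 1.40 and 1.01, the clamp loader subunit Rfc2 by 0.98, the hemimethyl-DNA reader Uhrf1 by 0.68 and the sliding clamp Pcna by 0.35. Uhrf1 and Pcna did not pass without QKO 4 and control 1 (adjusted p = 0.076 and 0.0643).

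Not all classical E2f targets followed. Ccne2, cyclin E2, read 7.17, 6.86, 6.94 and 7.25 in controls and 5.12, 4.99, 5.13, 5.45 and 5.38 in QKO, with no overlap (-1.85, SE 0.20, adjusted p = 1.03e-05). Pold2, a subunit of DNA polymerase delta, fell by 0.69, the repressor E2f8 by 0.65 and the kinase subunit Dbf4 by 0.57. The E2f8 and Dbf4 calls were each lost without control 2, control 3, control 4, QKO 2 or QKO 3, and when their probe sets were averaged. Values of Tk1, thymidine kinase (-0.07, adjusted p = 0.779), and Slbp, the histone stem-loop binding protein (0.26), did not pass the test, although a dimmer probe set of Slbp was higher (0.44, adjusted p = 0.016 over all probe sets).

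The promoters of the genes that rose were read for the E2f consensus in the reference, to show the sequence that some of these members share. In the 300 bases from 250 before to 50 after the RefSeq start (GRCm38.p6), TTTGGCGC or TTTCGCGC on either strand was found in 11 of 30 replication genes that rose and had a promoter in the table (36.7%), in 15 of 54 measured (27.8%) and in 210 of 14452 of all genes tested (1.45%). Of all genes that rose 1.94% held a match in this window, and of all genes that fell 1.99%. Within 50 bases of the start the shares were 1.12% of all genes that rose and 0.471% of all that fell, against 0.505% of all genes tested. Where TTTCGCGCCAAA or TTTGGCGCGAAA occurs, as in Mcm5 and Mcm6, matches on both strands overlap. The 4 stretches below, each of 120 bases and given 5′ to 3′ on the gene's strand, have the matches in capitals. They are Orc1 at chr4:108579334-108579453 on the plus strand, Mcm5 at chr8:75109304-75109423 on the plus strand, the clamp loader gene Rfc3 at chr5:151651209-151651328 on the minus strand and Mcm6 at chr1:128359706-128359825 on the minus strand.
Orc1: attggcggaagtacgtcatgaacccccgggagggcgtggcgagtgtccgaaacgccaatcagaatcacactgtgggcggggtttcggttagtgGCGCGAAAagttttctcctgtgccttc
Mcm5: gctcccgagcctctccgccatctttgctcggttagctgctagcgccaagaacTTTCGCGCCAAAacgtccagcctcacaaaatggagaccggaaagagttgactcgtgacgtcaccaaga
Rfc3: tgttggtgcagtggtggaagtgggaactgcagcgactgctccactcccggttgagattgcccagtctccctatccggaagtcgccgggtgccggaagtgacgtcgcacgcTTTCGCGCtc
Mcm6: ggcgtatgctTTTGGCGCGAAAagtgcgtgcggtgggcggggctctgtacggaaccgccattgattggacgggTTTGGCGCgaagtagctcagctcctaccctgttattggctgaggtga
In QKO, Orc1 read 8.42, 8.47, 8.40, 8.84 and 8.34 against 7.55, 7.54, 7.46 and 7.63 in controls, with no overlap, and Rfc3 read 9.31, 9.51, 9.40, 9.92 and 9.68 against 8.93, 9.07, 9.03 and 9.21. Mcm6 rose by 0.57 (adjusted p = 0.0103), with QKO 1 at 11.66 below control 4 at 11.70. With its probe sets averaged Mcm6 differed by 0.248 and did not pass (adjusted p = 0.218). Without QKO 4 and control 1 neither Mcm6 (adjusted p = 0.0742) nor Rfc3 (adjusted p = 0.0546) passed. A match describes the letters in the reference and shows no binding.

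Genes of G2 and mitosis changed in the opposite direction. Of 84 measured members 49 fell, 2 rose and 33 did not pass, with a median of -0.62. In 51 members every QKO array lay below every control array, where 13% of all genes had this. The list mean differed from the control mean by -0.69, -1.03, -0.89, -0.42 and -0.59 on QKO 1 to 5. Nusap1 read 9.95, 10.03, 10.29 and 10.29 in controls and 8.42, 7.60, 7.76, 8.24 and 8.12 in QKO (-2.11, SE 0.27, adjusted p = 4.05e-05). Ccnf read 9.22, 9.29, 9.56 and 9.46 against 7.75, 6.72, 7.05, 7.67 and 7.54 (-2.04, SE 0.26, adjusted p = 3.34e-05). In both genes QKO 2 was the lowest and QKO 1 the highest array of its group. Espl1, the separase that cleaves cohesin at anaphase, read 8.60, 8.77, 8.89 and 8.85 against 7.51, 6.48, 6.67, 7.23 and 6.85 (-1.83, SE 0.24). The centromere genes Cenpa and Cenpl differed by -2.05 and -1.64, the kinesin Kif22 by -1.17, the kinase Aurkb by -1.0 and cyclin A2, Ccna2, by -0.95, and each passed. Cdk1, the mitotic kinase, differed by -0.54 (adjusted p = 0.039), a call lost without control 1, control 3, control 4, QKO 1, QKO 2 or QKO 3 and with quantile normalization. Cenph, a centromere gene, rose by 0.88 and Cit, citron kinase, by 0.46. Of the activators of this programme, Foxm1 (-0.06, adjusted p = 0.703) and Mybl2 (-0.13, adjusted p = 0.496) did not pass on their brightest probe sets. A dimmer probe set of Foxm1 was lower (-0.71, adjusted p = 0.00681 over all probe sets) and one of Mybl2 higher (0.28, adjusted p = 0.049 over all probe sets).

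The promoters of the mitotic genes that fell were read for TTTGAA, the core of the cell cycle homology region, which is bound by the MuvB complex. On either strand it was present in the promoter window of 32 of 41 genes that fell (78%), 47 of 71 measured (66.2%) and 2263 of 14452 tested (15.7%). It was present in 16.7% of all genes that fell, whatever their list, and in 13.9% of all genes that rose. Within 50 bases of the start the shares were 65.9% of the mitotic genes that fell and 4.09% of all genes tested. The E2f consensus was found in 4 of the 41 (9.76%), among them Cenpl. The Cenpl stretch below holds that match near its end as gcgccaaa, left in lower case. The 4 genes shown, with the match in capitals, are Cenpl at chr1:161070549-161070668 on the plus strand, Ccnf at chr17:24251410-24251529 on the minus strand, Espl1 at chr15:102296173-102296292 on the plus strand and Kif22 at chr7:127042421-127042540 on the minus strand.
Cenpl: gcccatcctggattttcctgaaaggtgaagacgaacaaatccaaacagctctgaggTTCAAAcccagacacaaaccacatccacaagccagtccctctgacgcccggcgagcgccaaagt
Ccnf: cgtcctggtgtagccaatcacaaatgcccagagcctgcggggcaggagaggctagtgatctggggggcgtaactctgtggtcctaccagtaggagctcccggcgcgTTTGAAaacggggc
Espl1: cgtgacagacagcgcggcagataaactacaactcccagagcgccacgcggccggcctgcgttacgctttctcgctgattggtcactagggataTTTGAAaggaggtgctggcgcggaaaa
Kif22: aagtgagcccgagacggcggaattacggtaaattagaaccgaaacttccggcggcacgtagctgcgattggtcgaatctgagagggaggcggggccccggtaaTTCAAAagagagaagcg
Cenpl read 7.79, 7.85, 8.07 and 7.70 in controls and 6.08, 6.06, 6.15, 6.42 and 6.35 in QKO (-1.64, SE 0.12, adjusted p = 1.6e-07). Kif22 read 11.24, 11.18, 11.34 and 11.29 against 10.46, 9.61, 9.94, 10.18 and 10.29, so neither gene's groups overlapped.

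**Figure D3:**
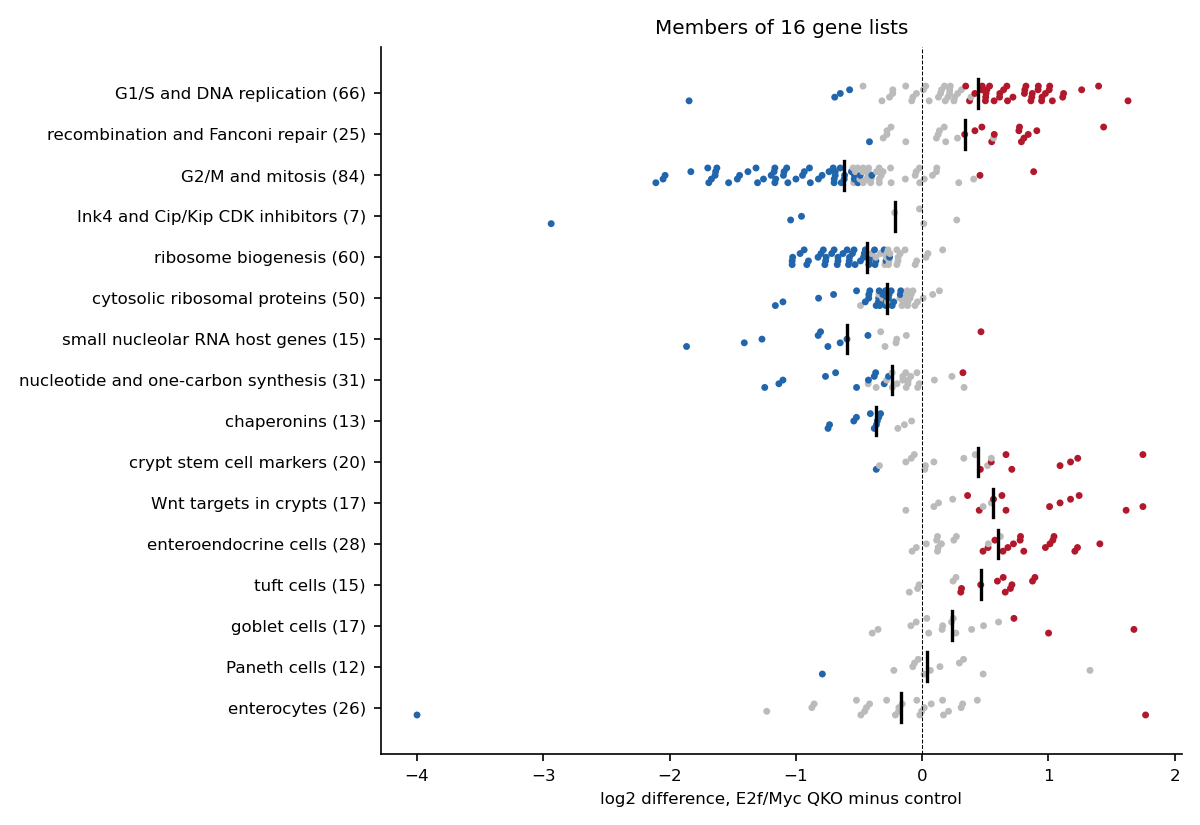
Each row is a gene list, with its number of measured members in parentheses, and each point is 1 member at its log2 difference, E2f/Myc QKO (n = 5) minus control (n = 4). Red and blue members passed the test in limma, grey members did not, and black bars are medians; replication genes lie to the right (median 0.45) and mitotic genes to the left (median -0.62), with Cdkn2c at -2.94 and Car4 at -4.0 far from the rest of their lists.

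The proteins that control entry into S phase changed in a mixed way. Of the 7 Ink4 and Cip/Kip inhibitors, 3 fell and 0 rose, where 12.6% of all genes were lower and 14.3% higher. Cdkn2c is described above. Cdkn2d, which encodes p19 of the same Ink4 family, read 7.77, 8.04, 8.11 and 7.50 in controls and 6.90, 6.92, 6.87, 6.86 and 6.53 in QKO (-1.04, SE 0.14, adjusted p = 4.12e-05). Cdkn2b, p15, was called at -0.96 (adjusted p = 0.044), but its groups overlapped and the call was lost in 11 of 21 alternative settings. Cdkn1a, p21, read 10.22 to 10.71 in controls and 10.12 to 11.15 in QKO on its brightest probe set and did not pass there (0.27, adjusted p = 0.564), while its other probe set had means of 9.24 and 10.29 and was higher by 1.05 (adjusted p = 0.0296 over all probe sets). Among cyclins, Ccnd3, cyclin D3, rose by 0.70 beside Ccnd2. Cdk2, the partner of cyclins E and A, rose by 0.41, and that call was lost without control 1 (it also failed without QKO 4 and control 1, and with centred arrays). The pocket proteins moved apart. Rb1, the retinoblastoma gene, fell by 0.89 and Rbl2, p130, by 0.49, while Rbl1, p107, rose by 0.57. A dimmer probe set of Rbl1 was lower in QKO (-0.34, adjusted p = 0.0266 over all probe sets). Of the 10 genes of the E2f and Dp family, 3 fell (E2f3, E2f7 and E2f8) and 0 rose. The repressor E2f7 read 7.56, 7.83, 7.84 and 7.66 in controls and 6.10, 5.44, 5.71, 5.82 and 5.49 in QKO (-2.01, SE 0.25, adjusted p = 2.97e-05), with no overlap. The members that pair with pocket proteins in resting cells, E2f4 (0.10) and E2f5 (0.19), and the partners Tfdp1 (-0.14) and Tfdp2 (0.19) did not pass on their brightest probe sets. A dimmer probe set of E2f5 differed in the other direction (-0.44, adjusted p = 0.00596 over all probe sets). With quantile normalization 2 of the family were called higher, and without control 4 the lower count was 1.

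Recombination and Fanconi repair genes leaned upward, with 12 of 25 higher, 1 lower and a median of 0.34. Rad54l, a motor of strand exchange, read 8.80, 8.85, 8.93 and 9.08 in controls and 9.89, 10.39, 10.19, 10.85 and 10.43 in QKO, a rise of 1.44 (SE 0.18, adjusted p = 2.29e-05). The paralog Rad51c rose by 0.81 (adjusted p = 7.62e-06), and the Fanconi core genes Fancg and Fancc by 0.79 and 0.77. The checkpoint list split, with 6 of 18 higher and 4 lower, beside 14.3% and 12.6% of all genes. The kinases Chek1 and Chek2 rose by 0.76 and 0.75, and Pkmyt1, which holds Cdk1 inactive, by 0.88. The clamp subunit Hus1 and its loader Rad17 fell by 0.61 and 0.45. H2ax, the histone variant phosphorylated at DNA breaks, read 11.51, 11.57, 11.87 and 11.85 against 10.55, 10.20, 10.45, 10.97 and 10.63 (-1.14, SE 0.23, adjusted p = 0.00145).

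Among 25 histone genes 8 fell and 1 rose (median -0.24). H2bc21 read 7.0, 7.16, 7.27 and 7.54 in controls and 4.98, 4.58, 4.92, 5.11 and 4.78 in QKO (-2.37, SE 0.35, adjusted p = 0.000111), and H2bc22 fell by 0.95. H2aw differed by -1.69 on its brightest probe set and by -0.07 (adjusted p = 0.587) once probe sets whose suffix marks shared sequence were left out. Near-identical histone genes can share probes, and their separate values are uncertain.

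Ribosome assembly genes, the textbook programme of Myc, were lower in QKO in most of the list. Of 60 measured members 39 fell, 0 rose and 21 did not pass, with a median of -0.44. The list mean differed from control by -0.47, -0.60, -0.57, -0.23 and -0.50 on QKO 1 to 5. Tbl3, a scaffold of the small-subunit processome, read 8.88, 8.96, 9.01 and 9.18 in controls and 8.15, 7.89, 7.79, 8.08 and 8.0 in QKO (-1.03, SE 0.12, adjusted p = 1.72e-05). Npm1, the nucleolar chaperone nucleophosmin, read 12.73, 12.94, 12.72 and 13.03 against 11.99, 11.70, 11.85, 12.23 and 12.01 (-0.90, SE 0.15, adjusted p = 0.000471). In both genes the groups were apart. The 2 dimmer probe sets of Tbl3, with control means of 3.33 and 2.94, differed by 0.30 and -0.05, and the mean of all its probe sets by -0.257. Nop16 fell by 0.82, Rrp8 by 0.72, Ebna1bp2 by 0.70, Utp18 by 0.63 and Nop2, an rRNA methyltransferase, by 0.45. Nhp2 (-0.40, adjusted p = 0.0551) and Nop10 (-0.04) of the pseudouridine complex did not pass, though a dimmer probe set of Nhp2 was lower (-0.71, adjusted p = 0.0021 over all probe sets). The same list differed from control in Myc KO by a median of -0.51 with 34 of 60 lower, and in E2f TKO by 0.04 with 0 lower. In those comparisons 4.72% and 1.22% of all genes were lower.

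The E-box CACGTG, read in the same promoter windows, occurred in 6 of 33 ribosome assembly genes that fell (18.2%), in 12 of 53 measured (22.6%) and in 1479 of 14452 tested (10.2%). It occurred in 13.6% of all genes that fell, in 9.58% of all genes that rose and in 0 of 10 nucleotide and single-carbon genes that fell. The motif reads the same on both strands. Utp18 at chr11:93885767-93885886 on the minus strand and Nop2 at chr6:125131763-125131882 on the plus strand are shown with it in capitals.
Utp18: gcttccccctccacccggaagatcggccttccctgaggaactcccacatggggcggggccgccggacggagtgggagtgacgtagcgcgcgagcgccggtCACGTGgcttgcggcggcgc
Nop2: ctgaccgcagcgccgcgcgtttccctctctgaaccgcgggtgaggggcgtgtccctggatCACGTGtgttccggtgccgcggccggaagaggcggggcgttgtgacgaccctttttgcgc
Utp18 read 9.53, 9.47, 9.56 and 9.70 in controls and 8.89, 8.79, 8.85, 9.13 and 9.04 in QKO, and Nop2 read 9.95, 9.97, 9.88 and 10.18 against 9.54, 9.31, 9.56, 9.85 and 9.44. The Nop2 call was lost without control 4 (adjusted p = 0.0505).

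In the rest of the translation machinery more members were lower than higher. Of 31 genes of RNA polymerases I and III, 16 fell and 1 rose (median -0.31), led by Polr1b and Polr3b, the second-largest subunits, at -0.89 each. Of 50 cytosolic ribosomal protein genes, 30 fell and 0 rose (median -0.28), and 38 had every QKO array below every control, where 13% of all genes had this. The count that fell was 19 with quantile-normalized values. Rpl37 read 11.53, 11.68, 11.57 and 11.65 in controls and 10.70, 10.39, 10.39, 10.59 and 10.45 in QKO (-1.10, SE 0.14, adjusted p = 2.99e-05), and Rpl22l1 fell by 0.70. Ribosomal protein probes can also read processed copies. Of 75 mitochondrial ribosomal proteins 29 fell and 2 rose (median -0.18), of 50 translation factors 21 fell and 3 rose (median -0.24), and of 34 aminoacyl-tRNA synthetases 12 fell and 2 rose (median -0.16). With centred arrays 44 mitochondrial ribosomal proteins were lower, and with quantile normalization 13 translation factors were. Of these 3 lists 44, 26 and 20 members did not pass. The largest falls were Eif1a (-0.80), Iars2 (-0.76) and Mrps10 (-0.73). Eif4g3, a scaffold of translation initiation, rose by 0.71.

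Host genes of small nucleolar RNAs were mostly lower in QKO. Of 15 measured, 9 fell and 1 rose, with a median of -0.60. Snhg4 read 9.53, 10.27, 9.66 and 10.21 in controls and 8.95, 7.99, 8.19, 7.95 and 7.20 in QKO (-1.87, SE 0.33, adjusted p = 0.000514). Snhg6 read 9.87, 10.11, 10.10 and 10.23 against 8.65, 8.36, 8.68, 9.06 and 8.61 (-1.41, SE 0.14, adjusted p = 5.09e-06). Both were below every control on all QKO arrays. Snhg3 fell by 1.27, Gas5 by 0.82 and Snhg1 by 0.80, while Snhg11 rose by 0.47.

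Of 31 enzymes that make nucleotides and single-carbon units 11 were lower, 1 was higher and 19 did not pass (median -0.24), where 12.6% of all genes were lower. Without control 4 or with quantile normalization the lower count was 6, a share near that of all genes, and without QKO 2 it was 7. Cad, which starts pyrimidine synthesis, read 9.10, 9.32, 9.20 and 9.50 in controls and 8.52, 7.95, 7.80, 8.10 and 7.80 in QKO (-1.25, SE 0.18, adjusted p = 8.77e-05). Dhodh, a later enzyme of the same pathway, fell by 1.10, and Shmt2, the mitochondrial serine hydroxymethyltransferase, by 1.13. Of 8 polyamine genes 2 rose and 2 fell, beside 14.3% and 12.6% of all genes. Srm, spermidine synthase, fell by 0.97 (near E2f2), whereas the polyamine-degrading Smox and the antizyme Oaz2 rose by 0.97 and 0.88. Odc1, the first enzyme of the polyamine pathway, fell by 0.33, a call lost without control 2, control 3, QKO 1 or QKO 2 and with quantile normalization.

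Nuclear import and chaperone genes were called lower and not higher. Of 26 importins and exportins 13 fell and 0 rose (median -0.25). Ipo4 read 10.01, 9.94, 9.85 and 10.13 in controls and 9.16, 8.89, 9.01, 8.98 and 8.80 in QKO (-1.01, SE 0.08, adjusted p = 4.72e-07), and Kpna2 fell by 0.84. Of 13 chaperonin genes 10 fell and 0 rose (median -0.36), led by Hspe1 (-0.75) and Cct8 (-0.73). That count was 5 without control 4, 6 without QKO 2, 6 without QKO 3 and 4 with quantile normalization. Among 28 known Myc targets 17 fell and 3 rose (median -0.40). This list repeats genes of the lists above, among them Npm1, Hspe1, Cad and Srm, so it is not a separate result. Pa2g4, a growth regulator that binds ribosomes, fell by 0.94 (adjusted p = 6.06e-05).

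Genes of energy metabolism were called in both directions. Of 78 respiratory chain genes 10 were higher and 7 lower (median 0.01), below the 14.3% and 12.6% of all genes, and the balance turned with the scale, to 23 against 3 with quantile normalization and 2 against 20 with centred arrays. The higher count was 5 without control 1, 4 without control 4 and 6 in the fit of the 2 groups alone. Of 12 glycolysis genes 3 rose and 1 fell. Hk2, the inducible hexokinase, read 8.63, 8.44, 8.38 and 8.65 in controls and 9.70, 10.05, 10.32, 10.31 and 9.62 in QKO (1.48, SE 0.22, adjusted p = 0.000139), with no overlap. Pfkm and Pkm rose by 0.43 and 0.41 and Pgam1 fell by 0.29, a call lost with quantile normalization (-0.186, adjusted p = 0.0921). In cholesterol synthesis 3 of 19 rose, a share near the 14.3% of all genes, and 5 fell, where 12.6% of all genes did. The lower count was 2 or 3 without control 1, control 2, control 3, QKO 4 or QKO 5. It was also 2 or 3 in the fit of the 2 groups alone and with quantile normalization. Tm7sf2 differed by 0.90 and Mvk by -0.59. The Mvk call was lost without QKO 4 and control 1 (adjusted p = 0.0979).

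The Myc network was read beside its targets. Of 14 genes, 3 fell (Myc, Mxd3 and Mlxip) and 1 rose, where 12.6% of all genes were lower and 14.3% higher. Mlxipl, the glucose-sensing factor ChREBP, read 11.33, 11.68, 11.33 and 11.46 in controls and 12.38, 12.40, 12.13, 12.35 and 12.23 in QKO (0.85, SE 0.13, adjusted p = 0.000198). The Mxd3 call (-0.42) was lost without control 3 or control 4, and that of Mlxip (-0.55) without control 2, control 3, control 4, QKO 1, QKO 3 or QKO 5. The paralog Mycn (0.19, adjusted p = 0.0719) and the partner Max (-0.41, adjusted p = 0.358) did not pass, while dimmer probe sets of Mycn were higher by 0.85 and 0.48 (adjusted p = 0.00119 and 0.00956 over all probe sets).

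Stem cell and Wnt target genes were higher on average. Of 20 stem cell markers 8 rose and 1 fell (median 0.44), and of 17 Wnt targets 11 rose and 0 fell (median 0.57). Lgr5, Ascl2, Axin2, Rnf43, Znrf3, Sox9 and Tnfrsf19 are in both lists, so the counts are not independent. The list means were highest on QKO 4, the array with low enterocyte markers. Wnt targets lay above control by 0.39, 0.74, 0.46, 1.13 and 0.80 on QKO 1 to 5, and stem cell markers by 0.22, 0.46, 0.25, 0.75 and 0.47. Without QKO 4 and control 1, 5 stem cell markers and 8 Wnt targets rose. Etv4, an Ets factor, read 7.31, 7.18, 7.26 and 7.32 in controls and 8.62, 8.94, 8.70, 9.15 and 8.98 in QKO (1.61, SE 0.14, adjusted p = 1.2e-06). Tnfrsf19, the receptor Troy, read 6.42, 6.27, 6.49 and 6.46 against 7.52, 8.26, 8.17, 8.58 and 8.26 (1.75, SE 0.31, adjusted p = 0.000617). Both were raised on every QKO array, and QKO 1 and QKO 4 were the ends of the range. The surface genes Ephb3 and Prom1 rose by 1.24 and 1.23 and the Wnt inhibitors Nkd1 and Rnf43 by 1.01 and 0.66. Nkd1 has 4 probe sets, and as their mean it differed by 0.226 and did not pass (adjusted p = 0.0599). Lgr5, the receptor that marks crypt base stem cells, read 7.21, 7.34, 7.17 and 7.40 in controls and 7.43, 8.30, 8.19, 9.55 and 8.80 in QKO. It rose by 1.18 (SE 0.36, adjusted p = 0.0219), with QKO 1 close to the controls. The call was lost without QKO 4 (0.90, adjusted p = 0.0516), without control 3 (adjusted p = 0.0537) and without both QKO 4 and control 1 (adjusted p = 0.0913). Olfm4 (0.03, adjusted p = 0.92), Axin2, a feedback target of Wnt (0.09, adjusted p = 0.847), and Ascl2, a stem cell transcription factor (0.55, adjusted p = 0.0504), did not pass. The part of the makeup of QKO 4 in these values was not tested beyond leaving the array out.

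Enteroendocrine genes were higher in QKO, and this did not rest on QKO 4. Of 28 markers 16 rose and 0 fell (median 0.60), 16 without QKO 4 and 13 without QKO 4 and control 1. Gip, the hormone of K cells, read 11.50, 11.64, 11.48 and 11.70 in controls and 12.55, 13.06, 13.19, 13.07 and 13.06 in QKO (1.41, SE 0.13, adjusted p = 1.4e-06). Sst, somatostatin, read 9.46, 9.85, 9.73 and 9.83 against 10.72, 11.05, 11.12, 11.08 and 10.77 (1.23, SE 0.15, adjusted p = 2.55e-05). Neither gene's groups overlapped. The granule protein Chga rose by 1.04 and the prohormone convertase Pcsk1 by 0.98. The lineage factor Neurod1 rose by 0.78 (adjusted p = 2.31e-05), and the earlier factor Neurog3 by 1.04 (adjusted p = 0.0109), a call lost without QKO 4 and control 1 (adjusted p = 0.0568). Sct, secretin (0.52, adjusted p = 0.0785), and Ghrl, ghrelin (0.27), did not pass.

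Tuft cell genes, which mark the chemosensory cells of the epithelium, were also higher, with 10 of 15 higher, 0 lower and a median of 0.46. Their mean lay 0.37, 0.54, 0.36, 0.57 and 0.34 above control on QKO 1 to 5. Avil, an actin-binding protein, read 7.82, 7.95, 7.76 and 7.82 in controls and 8.55, 8.76, 8.53, 9.09 and 8.73 in QKO (0.89, SE 0.12, adjusted p = 4.49e-05). Dclk1 read 6.74, 6.79, 6.46 and 6.55 against 7.22, 7.59, 7.03, 7.68 and 7.21 (0.71, SE 0.13, adjusted p = 0.000764), again with no overlap. The leukotriene genes Alox5ap and Alox5 rose by 0.87 and 0.46, the taste channel Trpm5 by 0.66, Hpgds by 0.64 and the lineage factor Pou2f3 by 0.31, a call lost with centred arrays (0.211, adjusted p = 0.0518). Among genes above the median level, 2 of the list were called higher, but members below that level were left out there and not tested. The list includes Il25, Ltc4s, Tslp, Gng13 and Plcb2, which did not pass.

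Of 17 goblet markers 3 rose and 0 fell (median 0.23), a share near the 14.3% of all genes. The count was 6 with quantile normalization and when the 2 groups were fitted alone. It was 5 without QKO 1, without E2f TKO 2 and 5, or with array weights. Retnlb, a resistin-like protein of goblet cells, read 12.30, 12.18, 12.16 and 11.86 in controls and 13.44, 14.37, 13.89, 13.84 and 13.47 in QKO (1.68, SE 0.34, adjusted p = 0.00161). In E2f TKO the same gene differed from control by -6.02, and QKO from E2f TKO by 7.69. Guca2a and Spink4 rose by 1.00 and 0.73. Of 12 Paneth markers 0 rose and 1 fell, Pnliprp2 at -0.79 (adjusted p = 0.0459), a call lost in 11 of 21 alternative settings. Pla2g2a read 14.42 on control 1 and 9.69 to 10.22 on the other controls.

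Enterocyte genes showed few calls, with 1 of 26 higher, 1 lower and a median of -0.17 that was 0.16 without QKO 4 and control 1. Car4 is described above. Mep1a, a brush-border metalloprotease, read 8.23, 8.83, 9.16 and 8.06 in controls and 10.15, 10.60, 10.40, 10.06 and 10.48 in QKO (1.77, SE 0.29, adjusted p = 0.000302). It was 1.65 above control in E2f TKO and -0.08 in Myc KO.

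**Figure D4:**
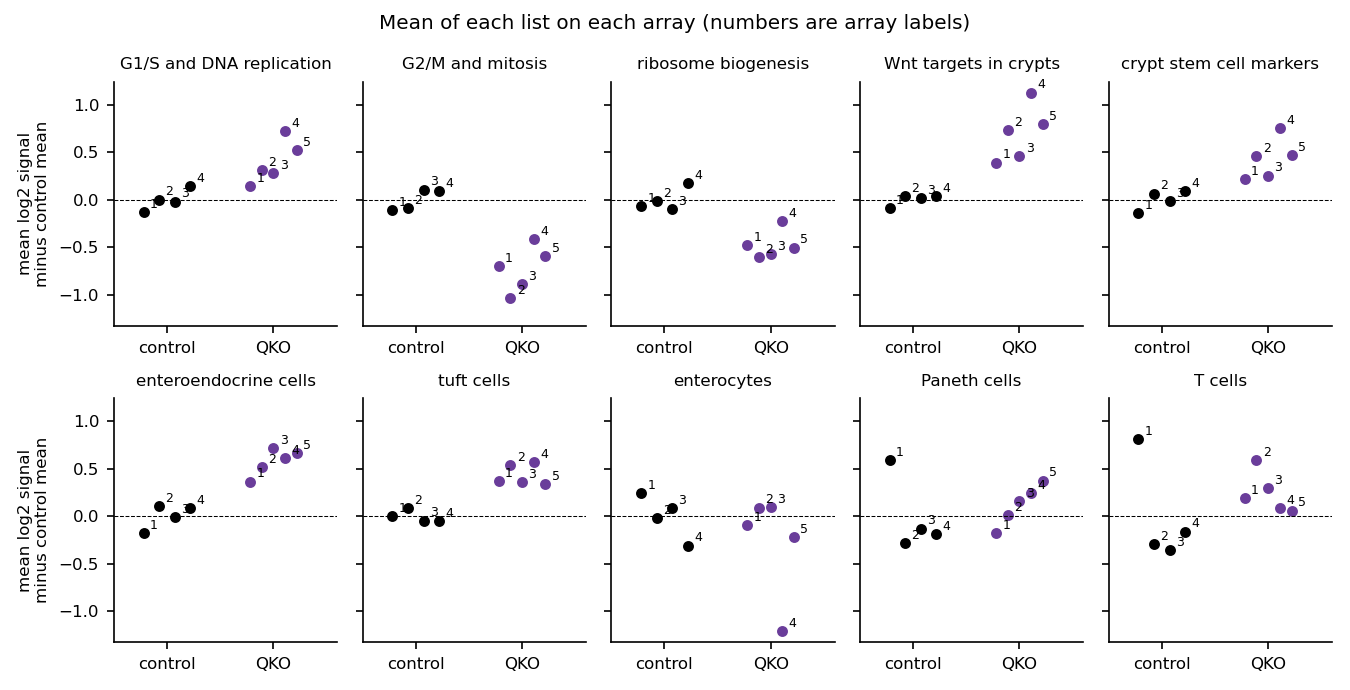
Each panel gives the mean log2 signal of a gene list on each control array (black) and each E2f/Myc QKO array (purple), minus the mean of the control arrays, with the array number beside the point. QKO 4 is highest for replication, Wnt and stem cell genes and lies at -1.21 for enterocyte genes, while control 1 lies at 0.81 for T cell genes; enteroendocrine and tuft cell genes are above every control on all QKO arrays.

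Targets of p53, the factor activated by DNA damage and other stress, were higher in 10 of 29 and lower in 2 (median 0.18). Their mean differed from the control mean by 0.24, 0.30, 0.38, -0.03 and 0.16 on QKO 1 to 5, and QKO 4 lay within the controls (-0.08 to 0.10). Phlda3, an inhibitor of Akt, read 7.27, 7.20, 7.14 and 7.25 in controls and 8.46, 8.50, 8.90, 7.86 and 7.94 in QKO (1.11, SE 0.26, adjusted p = 0.00416). Plk2 read 6.39, 6.25, 6.05 and 6.27 against 7.22, 7.48, 7.99, 6.86 and 6.92 (1.06, SE 0.27, adjusted p = 0.00914). In both genes QKO 4 was the lowest of its group and still above every control. Trp53inp1 rose by 1.02 and the translesion polymerase Polk by 0.44, while Sesn1, a sestrin, fell by 0.72 (-0.461 without QKO 4 and control 1). In the Bcl2 family, which governs apoptosis, 4 of 14 measured genes rose and 2 fell, where 14.3% of all genes were higher and 12.6% lower. Bid, a pro-apoptotic member cut by caspases, read 8.94, 9.38, 9.12 and 9.33 against 8.32, 7.82, 7.83, 8.17 and 8.04 (-1.16, SE 0.15, adjusted p = 3.39e-05). The pro-apoptotic Bcl2l11 rose by 0.50, a call lost when the probe sets of the gene were averaged (adjusted p = 0.582).

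Markers of other cells in the preparation were followed beside these results. The counts below stand beside 14.3% of all genes higher and 12.6% lower. Among mast cell genes 3 of 12 fell and 0 rose, and the list mean was -0.38 to -0.27 on the QKO arrays. The lower count was 0 to 4 over the alternative settings. Mcpt1, a mucosal mast cell protease, read 7.73, 7.49, 7.04 and 7.68 in controls and 5.76, 5.53, 5.79, 5.62 and 5.49 in QKO (-1.85, SE 0.38, adjusted p = 0.00167), and Mcpt2 fell by 1.69. Of 15 T cell genes 2 rose, with list means of 0.06 to 0.59 in QKO and -0.35 to 0.81 in controls. The overlap comes from control 1 at 0.81, and without that array 5 of the 15 rose. Of 6 MHC class II genes 0 passed in limma, 2 had an unadjusted p under 0.05, and their median difference was 0.89. In the fit of the 2 groups alone 3 of the 6 were higher, and 2 were with array weights or without E2f TKO 2 and 5. The controls spread widely, and Cd74, the invariant chain, read 8.02 to 10.32 in controls and 9.81 to 11.20 in QKO. Of 20 fibroblast and smooth muscle genes 3 rose, of 12 endothelial genes 3, of 12 neuronal and glial genes 2, of 16 B and myeloid genes 1 and of 4 red blood cell genes 0 (0 at an unadjusted p under 0.05), and none fell in these 5 lists. These counts moved with the setting, over 0 to 4 higher for fibroblasts and smooth muscle, 0 to 5 for endothelium and 1 to 6 for neurons and glia. A setting that leaves out dimmer genes can also test fewer members of a list. Of 27 interferon-response genes 2 fell and 0 rose. Psmb9, an immunoproteasome subunit, fell by 0.74. The part of these cells in the epithelial results was not tested.

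QKO crypts were also set against each single condition. Against E2f TKO 1653 genes were higher (9.09%) and 1447 lower (7.95%), and against Myc KO 836 were higher (4.6%) and 562 lower (3.09%). For scale, E2f TKO against control gave 305 higher (1.68%) and 222 lower (1.22%), and Myc KO against control 653 higher (3.59%) and 858 lower. The last 2 comparisons share the control arrays with the main one. The arrays labelled E2f TKO 2 and 5 read 5.05 and 4.91 for Cyp1a1, a gene induced through the aryl hydrocarbon receptor, where all other arrays read 12.66 to 14.10. Without them QKO and E2f TKO differed in 2155 genes, against 3100. Among replication genes 37 of 66 were higher in QKO than in Myc KO and 14 higher than in E2f TKO. Among mitotic genes 35 of 84 were lower than in Myc KO and 16 lower than in E2f TKO. Ribosome assembly genes were lower than in E2f TKO in 42 of 60, and 1 was lower than in Myc KO, where the median difference was 0.05.

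A gene was counted as apart in QKO when it passed the test in 1 direction against control, E2f TKO and Myc KO. That was met by 311 genes above (1.71% of those tested) and 194 below (1.07%). The count of 505 was 334 once QKO 4 and control 1 were left out, and with Myc KO 3 or Myc KO 4 left out it was 334 or 321. Replication genes made up 12 of those above and mitotic genes 16 of those below. Adgrg6 stood at 4.45 ± 0.15 (SD, n = 4) in controls and 7.32 ± 0.20 (SD, n = 5) in QKO, with E2f TKO at 5.83 ± 0.42 (SD, n = 5) and Myc KO at 5.26 ± 0.24 (SD, n = 4) between them. Its level rose from control in each single condition (1.38 and 0.82) and more in QKO. Tgfbr2 had means of 8.73, 10.04, 10.13 and 11.28 in control, E2f TKO, Myc KO and QKO, and in the same order Ccnd2 had 11.48, 12.53, 12.99 and 13.55. For Wfdc1, a whey acidic protein, the single conditions did not pass against control (means 7.54, 7.85, 7.92 and 9.49). For Kctd14 the means were 7.55, 8.49, 7.56 and 9.55.

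Among genes below, Car4 had means of 11.28, 10.47, 8.82 and 7.28, and only Myc KO passed against control of the single conditions. Nusap1 had means of 10.14, 9.25, 10.05 and 8.03, Ccnf 9.38, 8.38, 9.41 and 7.35 and E2f7 7.72, 6.49, 7.73 and 5.71. In these 3 genes the Myc KO mean differed from control by -0.09, 0.03 and 0.01, and Nusap1 in E2f TKO did not pass (adjusted p = 0.104). The E2f TKO arrays were uneven. The mitotic list mean lay 1.13 below the control mean on E2f TKO 1, against -0.40 to -0.01 on the other E2f TKO arrays. Ccne2 had means of 7.06, 6.25, 6.51 and 5.21, and Trim59 8.69, 7.89, 8.24 and 6.79. Cdkn2c was not among them, since its QKO mean was 0.34 above that of E2f TKO (adjusted p = 0.0665).

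**Figure D5:**
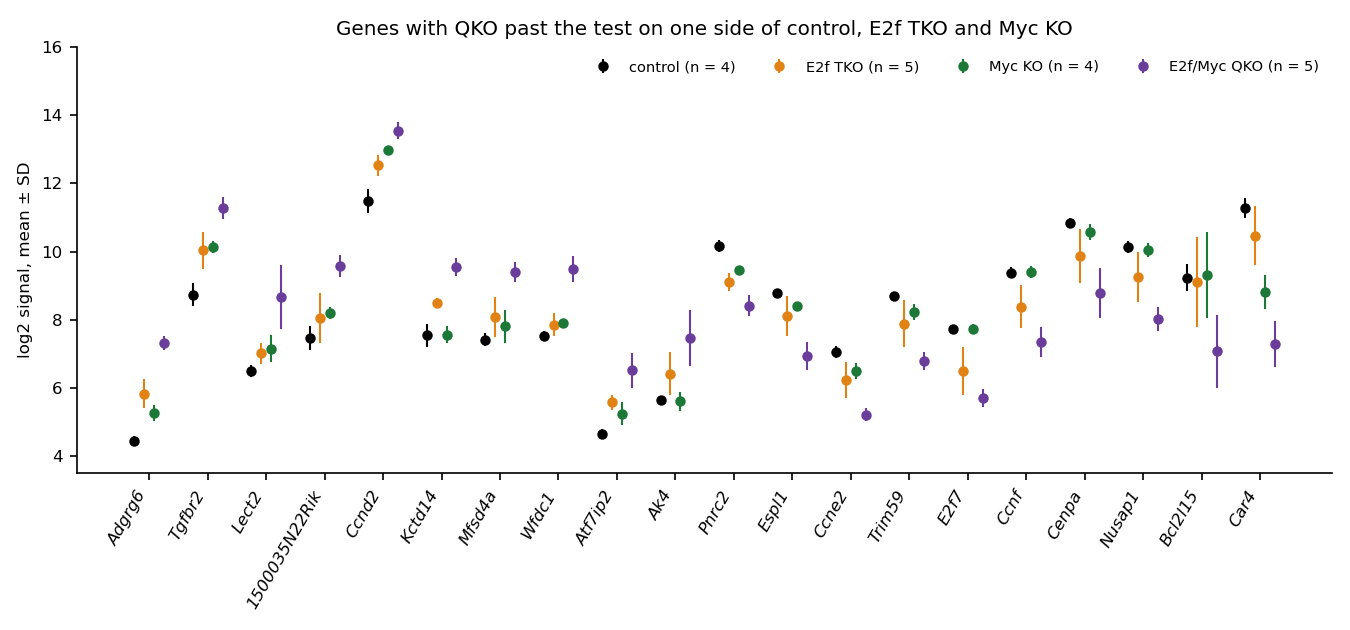
Points are mean log2 signals and bars are SDs of 20 genes in the 4 groups, chosen as the 10 largest differences from control in each direction among the 505 genes whose QKO arrays passed the test on 1 side of all other groups. Adgrg6, Tgfbr2 and Ccnd2 step up from control through both single conditions to QKO, whereas Nusap1, Ccnf and E2f7 in Myc KO lie within 0.09 of the control mean.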

How the data were processed

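Crypt RNA was extracted with TRIzol and RNeasy columns and labelled with biotin for a mouse Affymetrix expression array, per the labels' protocols. The authors deposited log2 signals, a scale taken from their range of 2.29 to 14.81, for 45101 probe sets on 18 arrays, summarised from the probes by a method not given in the sources used here. How the arrays were normalized is likewise not given. No column of per-sample values was left unused (0 columns). The values were used as deposited. Left out were 64 control probe sets, 932 with several gene symbols and 9160 with none; the remaining 34945 gave 18193 genes, 9010 of them with over 1 probe set, of which that with the highest mean over all arrays was used. Entrez numbers matched 18032 genes in the GRCm38.p6 tables, from which the promoter sequences came.

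All 18 arrays were fitted by group in limma 3.58.1 (R 4.3.3), with empirical Bayes variances and Benjamini-Hochberg adjustment over 18193 genes at a threshold of 0.05. An adjusted p for another probe set of a gene is over all probe sets. Figures were drawn with matplotlib 3.10.9 and pandas 2.3.3 in Python 3.11.15. The code was tested on simulated data. Samples were grouped by their titles. Alternatives were quantile normalization, centring each array on its median, averaging all probe sets of a gene, keeping only genes brighter than the median gene, leaving out _s_at and _x_at probe sets, fits of 2 groups, a replicate block, trended robust variances, array weights, Xist as a covariate, leaving out E2f TKO 2 and 5 and leaving out each array. Leaving out QKO 4 and control 1 was chosen after seeing the data.

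The comparisons, gene lists and tests were chosen with earlier results of these data known. Named genes were drawn from a pool of the targeted genes and the 15 raised and the 15 lowered most among called genes whose arrays did not overlap. The pool also held, of each list, up to 4 called members with the smallest p in each direction and the 2 uncalled members with the highest signal. Every member of a list of at most 15 was in it, as were the 5 highest and 5 lowest called genes against E2f TKO and against Myc KO. The 10 in each direction furthest from control among genes on 1 side of all other groups, Cyp1a1 and Xist completed it. Not every gene of the pool is named, so small lists are not given in full. Named after their values were seen were Ascl2, Aurkb, Axin2, Cdc45, Cdc6, Cdk1, Chga, Gins2, Kif22, Lgr5, Mcm2, Mcm4, Mcm5, Mcm6, Mt1, Nop2, Rfc3 and Utp18. Histone symbols were updated to current names after the table was read.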

Additional observations from a re-analysis of the deposited data

Results flagged for a closer look

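Each result was looked at for a single array lying far from the rest of its own group. Of 468 such tests over the named genes and the list means, 21 met this, 11 in QKO and 10 in controls. Chance meets it in about 1 of 20 groups (5% of tests), so a count of this size carries little weight by itself.

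QKO 4 was the array apart in 6 of them. It read 12.84 for Hspe1, a mitochondrial chaperonin, against 12.6 or below in the other QKO arrays, and 8.84 for Orc1, an origin recognition subunit, against 8.47 or below. It read 5.61 for Rims4 against 6.13 or above and 9.18 for Sesn1 against 9.93 or above. Its enterocyte list mean was -1.21 relative to the control mean, against -0.22 or above, and its aminoacyl-tRNA synthetase list mean was -0.06, against -0.18 or below. QKO 5 read 12.67 for Pgam1, a glycolytic enzyme, against 12.38 or below, 6.53 for Cdkn2d against 6.86 or above, 13.35 for Mt1 against 11.93 or below and 12.85 for Mt2 against 10.49 or below. QKO 1 read 12.55 for Gip, an enteroendocrine hormone, against 13.06 or above.

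Among controls, control 1 read 14.42 for Pla2g2a, a secreted phospholipase of Paneth cells, against 10.22 or below, and 3.34 for Tslp against 3.23 or below. Its list means relative to the control mean were 0.81 for T cell genes, against -0.16 or below, 0.13 for endothelial genes, against -0.03 or below, and 0.04 for neuronal and glial genes, against -0.01 or below. Control 3 read 12.6 for Xist against 6.61 or below and 8.79 for Jag1 against 8.5 or below. Control 4 read 8.78 for Neurog3 against 8.44 or below and 5.42 for Gsdmc2 against 7.14 or above, and its mean over the Myc target list was 0.13 above the control mean, against -0.02 or below.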

How the results depend on the processing

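The arrays number 4 and 5 in the groups compared, the normalization is not known, and a signal near background can hide a change. Of 163 named genes past the test, 133 stayed past it in the same direction under every alternative run for them. For QKO against control, single E2f TKO or Myc KO arrays were not left out. Genes that a setting dropped were not run in it. The 4888 genes that differed between QKO and control came to 3391 among genes above the median level (1362 higher, 2029 lower) and 6536 with array weights. They came to 3636 to 4628 when 1 control or QKO array was left out. QKO against E2f TKO gave 3100 genes, 1549 when these 2 groups were fitted alone and 2185 to 4288 with 1 array left out, the highest without E2f TKO 1. QKO against Myc KO gave 1398, with array weights 2265, and 918 to 1314 with 1 array left out, the lowest being 918 without Myc KO 3 and 921 without Myc KO 4. The 505 genes on 1 side of all other groups came to 328 with each comparison fitted alone and 334 without QKO 4 and control 1. They came to 426 without E2f TKO 2 and 5, and to 321 to 730 with 1 array left out, the highest without E2f TKO 1. Hsd17b13 reversed to -0.287 as the mean of its probe sets and Ctse to 0.137 without probe sets whose identifiers end in _s_at or _x_at. The cause was not tested for these changes. With the replicate number as a block the counts were 5335 (2847 higher, 2488 lower), 3489, 1545 and 622 in the same order. Arrays with the same number shared deviations at correlations of 0.062, 0.014, -0.025 and 0.352, so the numbers were not taken to pair the samples. Averaging a gene's probe sets kept the call but made the difference over 1.5 times smaller for 28 of the named genes and larger for 1, Odc1 (-0.548). Of those whose smaller value is not given with the results, the rises became 0.741 for Cdt1, 0.727 for Mcm4, 0.451 for Chek1, 0.38 for Fancc, 1.228 for Glipr1, 0.564 for Lgr5, 0.455 for Dclk1, 0.628 for Plk2, 0.663 for Trp53inp1 and 0.602 for Smox. The falls became -0.872 for Cenpa, -1.397 for Nusap1, -1.354 for Pyroxd2, -0.228 for Ebna1bp2, -0.527 for Nop16, -0.41 for Utp18, -0.353 for Cct8, -0.316 for Hus1, -0.485 for Iars2, -0.365 for Mrps10, -0.579 for Pa2g4 and -0.567 for Polr3b. Without probe sets whose identifiers end in _s_at or _x_at, Dhodh came to -0.724, Hspe1 to -1.176 and Kctd14 to 1.316.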

Other observations

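Among genes of the Notch pathway, which sets the choice between absorptive and secretory cells, 2 of 17 were higher and 2 lower in QKO. These shares are near the 14.3% and 12.6% of all genes. Jag2, a Notch ligand, read 7.71, 7.78, 7.85 and 7.86 in controls and 8.18, 8.14, 8.19, 8.06 and 8.0 in QKO (0.31, SE 0.06, adjusted p = 0.000713). Rbpj, the DNA-binding partner of Notch, read 8.90, 9.20, 8.93 and 9.14 against 8.52, 8.40, 8.58, 8.80 and 8.79 (-0.42, SE 0.11, adjusted p = 0.00859). Neither gene's groups overlapped. The ligand Jag1 differed by -0.55, a call lost without control 3 (adjusted p = 0.0631), and the other member that rose, Neurog3, is given with the enteroendocrine genes.

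The metallothioneins, small proteins that bind zinc and copper, divided the QKO arrays. Mt2 read 13.06, 12.89, 11.48 and 12.45 in controls and 10.49, 9.89, 9.97, 10.12 and 12.85 in QKO. Mt1 read 13.39, 13.33, 12.59 and 13.14 against 11.93, 11.78, 11.73, 11.93 and 13.35. QKO 5 lay at the level of the controls in both genes and the other QKO arrays lay below them. The differences in limma were -1.81 for Mt2 (adjusted p = 0.0172) and -0.97 for Mt1 (adjusted p = 0.0189). Both calls were lost without control 1 (adjusted p = 0.0521 and 0.0541) or control 2 (0.053 and 0.0566) and without QKO 4 and control 1 (0.0922 and 0.0899). Mt1 also lost its call, at -0.256 (adjusted p = 0.61), without probe sets whose identifiers end in _s_at or _x_at, and at -0.614 (adjusted p = 0.0991) as the mean of its probe sets.

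Of 20 amino acid transporters 4 rose and 4 fell (median -0.001), where 14.3% of all genes were higher and 12.6% lower. Among those that rose, Slc38a1, a glutamine transporter, read 9.75, 9.96, 9.81 and 9.90 in controls and 10.77, 10.72, 10.66, 11.15 and 11.12 in QKO (1.03, SE 0.15, adjusted p = 0.000113), with no overlap.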
